A study of Danio rerio with 12 samples.

Results

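The lysosome is the acidic compartment in which cells break down proteins, lipids and sugars. Cathepsins are its proteases, most of them cysteine proteases that are made as inactive precursors and become active at low pH. The vacuolar proton pump (V-ATPase) makes that low pH: its V1 sector in the cytosol hydrolyses ATP, and its V0 sector in the membrane carries protons across. LAMP proteins are heavily glycosylated proteins that line the lysosomal membrane. Genes of these families were chosen by name from the gene table of a zebrafish embryo RNA-sequencing experiment: protein-coding genes whose symbol begins with cts and a letter, with atp6v, or with lamp and a digit. The hatching-gland cathepsins ctslb and ctsl1b were left out by name, which removed 4 identifiers of ctslb. The choice gave 41 of the 32520 genes in the table, namely 16 cathepsins, 22 pump subunits (13 of V1 and 9 of V0) and 3 LAMP genes.

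The embryos were wild type, of the AB strain, and were taken whole at 3 days after fertilisation. All groups were exposed from 2 to 4 h after fertilisation onwards. The 4 groups received 0.1% dimethyl sulfoxide (DMSO, the vehicle), 30 µM testosterone, 30 µM testosterone with 5 µM calindol, or 30 µM testosterone with 100 µM epigallocatechin gallate (EGCG). Each group had 3 libraries, from clutches 1, 2 and 4. Below, the calindol and EGCG groups are those that received testosterone with that antagonist, so their differences from DMSO are those of both compounds together. The study asked which genes testosterone acts on through the membrane receptor GPRC6A, and its design describes EGCG as a strong and calindol as a weak antagonist of that receptor. Both antagonists were given only together with testosterone, so what an antagonist does by itself and what it does to the testosterone response cannot be told apart. How many embryos a library pooled was not given in the sources used here.

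Libraries held 8181295 (testosterone with EGCG, clutch 1) to 22510680 counts (testosterone, clutch 4), and libraries of a group correlated across genes with a Pearson r of 0.9826 to 0.9939 on log2(CPM + 1). Levels below are counts scaled to a common library total with TMM factors (CPM) and written in the order clutch 1, 2, 4. They are not divided by gene length, so levels of different genes are not compared. Differences were tested with edgeR's quasi-likelihood test over 20237 genes, two-sided, and a gene was called at a Benjamini-Hochberg adjusted p under 0.05. Every adjusted p comes from that test unless another is named. SE is an approximate standard error, the absolute log2 fold change divided by the square root of the test's F statistic. Of the 41 genes, 36 had enough counts for the test.

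Testosterone alone changed 6 of these 36 genes (16.7%), 3 higher and 3 lower. Of all tested genes, 6.32% were called, 2.93% higher and 3.39% lower. Testosterone with calindol changed 20 of 36 against DMSO (55.6%; 27.4% of all tested genes), 18 higher and 2 lower, where 11.5% of all tested genes were higher and 15.9% lower. Testosterone with EGCG changed 8 of 36 against DMSO (22.2%; 17% of all tested genes), 2 higher and 6 lower, where 7.69% of all tested genes were higher and 9.33% lower. The EGCG count was 5 without DMSO library 2, DMSO library 4 or EGCG library 1, 4 without EGCG library 2, 11 without calindol library 1 and 14 with only the 6 libraries of these groups in the fit. The median log2 fold change over the 36 genes was -0.01, 0.30 and 0.04 in these 3 comparisons, and over all tested genes it was 0.00, 0.01 and 0.00. Together the 41 genes took 0.498% to 0.545% of the counts in the calindol libraries and 0.356% to 0.399% in the other 9 libraries. Much of that difference came from 1 gene, ctsla. It held 50341, 35771 and 30163 of the 107047, 98097 and 81277 counts of the 41 genes with calindol. With DMSO it held 16575, 18929 and 19113 of 67493, 69421 and 76136. In whole embryos, fewer cells of a type and less RNA per cell cannot be told apart.

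Against testosterone alone, adding calindol raised 25 and lowered 2 of the 36 genes (75% called; 25.8% of all tested genes, 11% higher and 14.8% lower), with a median log2 fold change of 0.38 beside 0.01 for all genes. Adding EGCG raised 2 and lowered 4 (16.7%; 11.6% of all tested genes, 6.05% higher and 5.59% lower), with a median of -0.02 beside -0.02. That count of 6 rested on single libraries, and was 0 without EGCG library 2 (by edgeR, with 10 genes at an unadjusted p under 0.05). Between both antagonist groups, 23 genes were lower and 3 higher with EGCG than with calindol (72.2%; 43.1% of all tested genes, 22% lower and 21.1% higher), and the median was -0.33 beside -0.06. These 6 comparisons share libraries, so their calls are not independent of one another.

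**Figure D1:**
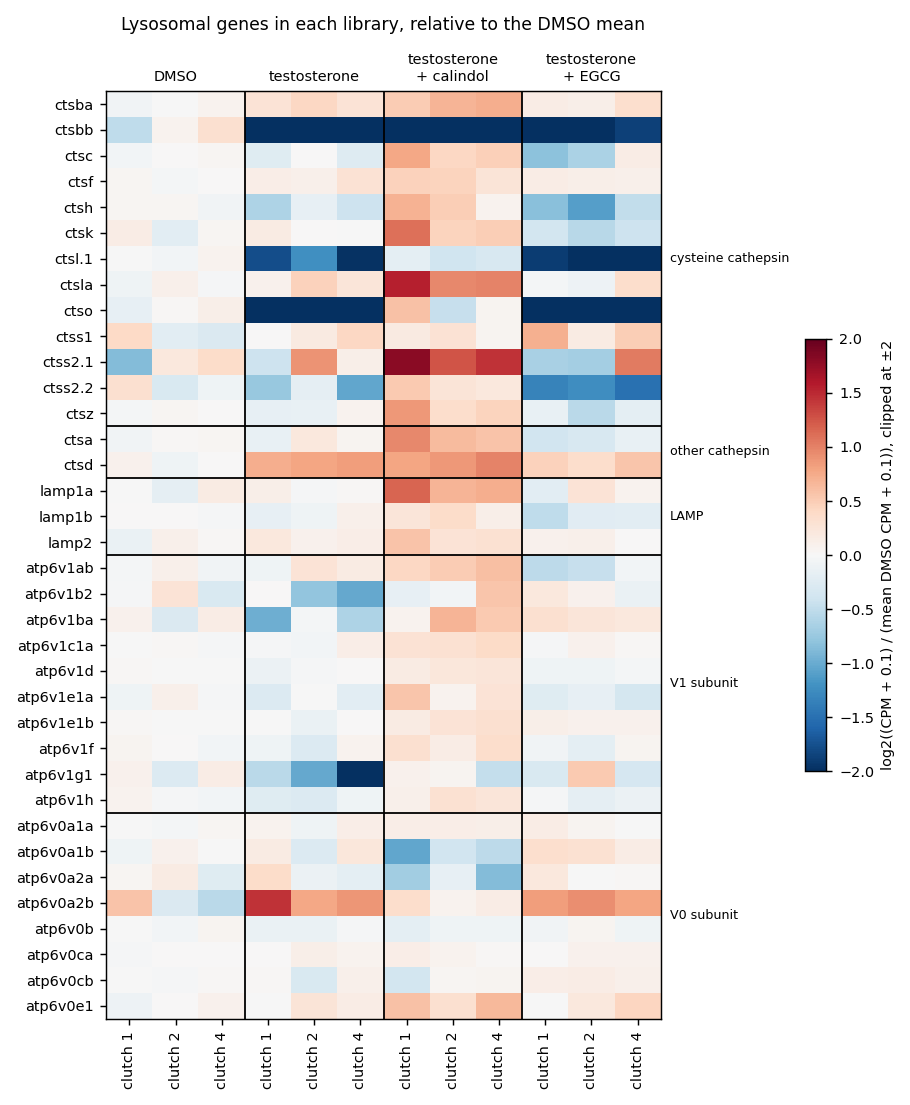
Each cell shows 1 tested gene (rows, grouped by role) in 1 library (columns, grouped by exposure), as log2 of CPM plus 0.1 over the mean DMSO CPM plus 0.1, with colours limited at -2 and 2. The calindol columns are red for most cathepsins, LAMP genes and V1 subunits, while ctsl.1 and ctso are dark blue only in the testosterone and EGCG columns.

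The cysteine cathepsin genes ctsl.1, ctso and ctsbb fell with testosterone. The gene ctsl.1 (ENSDARG00000003902), one of several cathepsin L genes of the zebrafish, had 17.8, 17.2 and 18.8 CPM with DMSO. It had 5.18, 7.64 and 4.46 CPM with testosterone, 15.6, 13.6 and 14.3 CPM with testosterone and calindol, and 4.74, 2.61 and 2.86 CPM with testosterone and EGCG. The calindol libraries lay between those with DMSO and those with testosterone alone, without overlap with either. Its log2 fold change was -1.64 with testosterone against DMSO (SE 0.20, adjusted p = 0.000168), and it was higher with calindol than with testosterone alone (1.33, SE 0.20, adjusted p = 0.000331). Calindol against DMSO did not pass (-0.31, SE 0.19, adjusted p = 0.244), which does not show that the levels are equal. EGCG against DMSO gave -2.46 (SE 0.22, adjusted p = 7.65e-06).

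The gene ctso (ENSDARG00000052855), cathepsin O, was measured at low counts. With DMSO it had 4.76, 5.41 and 5.81 CPM, from 90, 102 and 122 counts. With testosterone it had 0, 0.922 and 0.131 CPM, from 0, 17 and 3 counts. All 3 testosterone libraries were below all 3 DMSO libraries, and the library of clutch 2 was the highest of the 3. With calindol it had 8.03, 3.85 and 5.53 CPM and with EGCG 0.237, 0.828 and 1.05 CPM, so the calindol libraries overlapped with DMSO and the EGCG libraries did not. The log2 fold change was -3.83 with testosterone (SE 0.59, adjusted p = 0.00115) and -2.77 with EGCG (SE 0.55, adjusted p = 0.00414) against DMSO. Calindol against testosterone gave 3.95 (SE 0.59, adjusted p = 0.000297), and calindol against DMSO gave 0.12 (SE 0.44, adjusted p = 0.874).

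The cathepsin B copy ctsbb (ENSDARG00000101051) had 1.01, 1.54 and 1.86 CPM with DMSO (19, 29 and 39 counts) and no count in any testosterone library. It was at least 8.26-fold lower with testosterone, taking 3 counts per library as the limit that a count of 0 allows (adjusted p = 0.00198). The calindol libraries held 5, 0 and 3 counts and the EGCG libraries 2, 1 and 6, and both groups were below all DMSO libraries. Against DMSO the log2 fold change was -3.25 with calindol (SE 0.71, adjusted p = 0.00435) and -2.76 with EGCG (SE 0.71, adjusted p = 0.0198). The EGCG call was lost without DMSO library 2 or 4 (0.063 and 0.0736) and without EGCG library 1 or 2 (0.0628 and 0.0997). For calindol against testosterone ctsbb was not called (adjusted p = 0.0674). The other cathepsin B copy, ctsba (ENSDARG00000055120), had 112, 117 and 124 CPM with DMSO and 142, 157 and 142 CPM with testosterone. In the calindol libraries it had 168, 189 and 194 CPM, above every library of the other groups, and with EGCG 130, 127 and 149 CPM. Its log2 fold change against DMSO was 0.32 with testosterone (SE 0.08, adjusted p = 0.0269) and 0.64 with calindol (SE 0.08, adjusted p = 5.39e-05). The testosterone call on ctsba was lost without DMSO library 1, 2 or 4 (0.126, 0.0847 and 0.0502) or testosterone library 2 (0.0887).

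**Figure D2:**
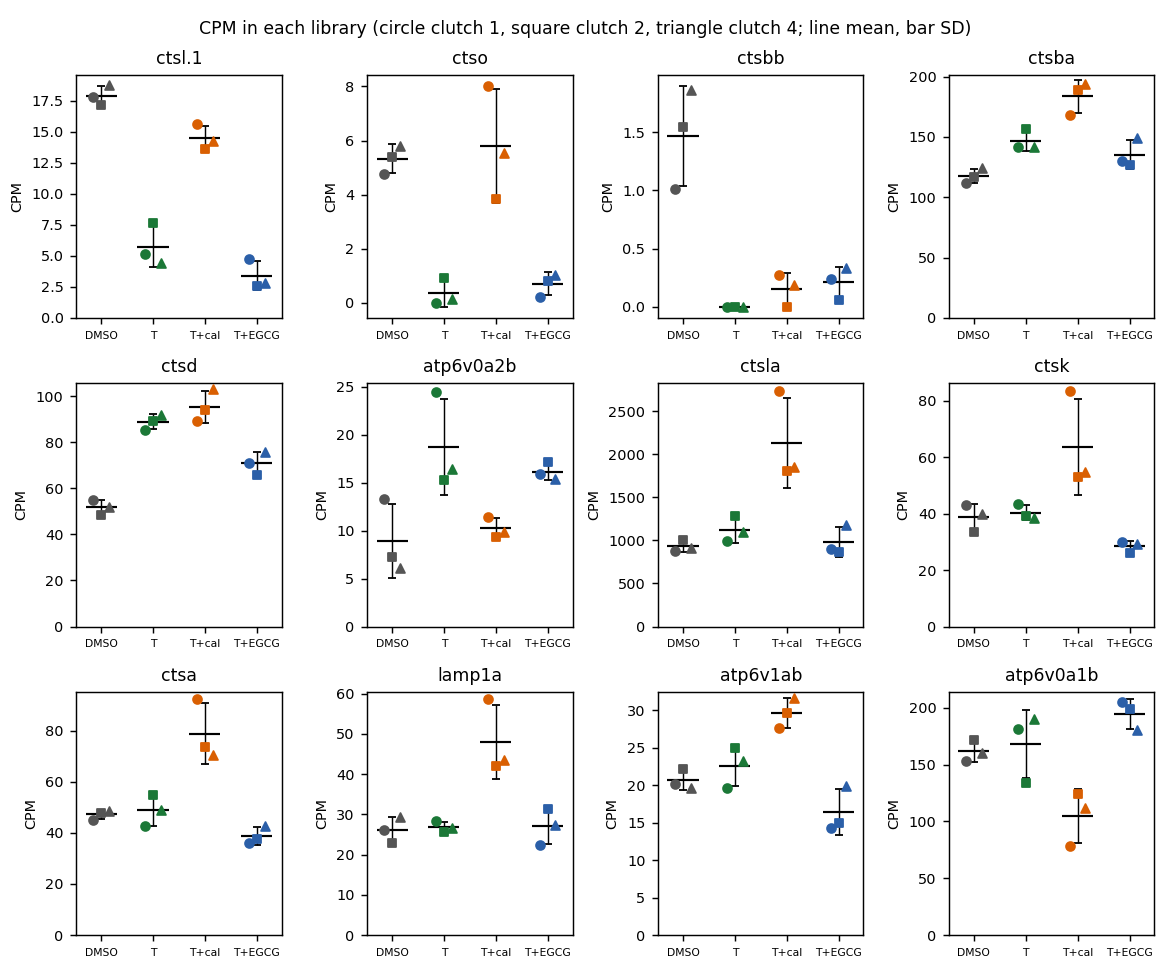
CPM of 12 of the genes in each library, by exposure (T, testosterone; T+cal, with calindol; T+EGCG, with EGCG); markers are libraries by clutch, the horizontal line is the mean and the bar the SD of 3. The genes ctsl.1 and ctso are low with testosterone and with EGCG but not with calindol, ctsd is above DMSO in all 3 exposures, and ctsla, ctsk, ctsa and lamp1a are high with calindol.

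Several other cysteine cathepsins were highest with calindol. The cathepsin L gene ctsla (ENSDARG00000007836) had 877, 1000 and 910 CPM with DMSO and 987, 1280 and 1100 CPM with testosterone. With calindol it had 2730, 1810 and 1850 CPM, the library of clutch 1 being the highest, and with EGCG 900, 868 and 1180 CPM. The calindol libraries lay above all others, while DMSO, testosterone and EGCG libraries overlapped. The log2 fold change was 1.2 against DMSO (SE 0.15, adjusted p = 6.73e-05) and 0.93 against testosterone (SE 0.15, adjusted p = 0.00059). Because ctsla took most of the cysteine cathepsin counts, their summed level followed it, at 1420 ± 61.1 CPM with DMSO, 1640 ± 158 with testosterone, 2830 ± 569 with calindol and 1450 ± 206 with EGCG (SD, n = 3 each). Without ctsla, the sum over all other cathepsins was 590 ± 11.4, 654 ± 24.7, 874 ± 56.9 and 575 ± 40.8 CPM in the same order. The calindol library of clutch 1 was the highest in both sums, at 3488 CPM beside 2490 and 2515, and at 939.6 beside 847.4 and 835.8. Of the 3 calindol libraries it was also furthest from DMSO for ctsk, ctsa, ctsz, lamp1a and atp6v0a1b, but nearest to DMSO for ctsba and ctsd.

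Cathepsin K, a collagen-degrading protease known from osteoclasts, is encoded by ctsk (ENSDARG00000040251). It had 42.9, 33.4 and 39.7 CPM with DMSO and 43.4, 39.0 and 38.6 CPM with testosterone. In the calindol libraries it had 83.4, 52.9 and 54.7 CPM and with EGCG 29.8, 26.2 and 29.1 CPM. The calindol libraries were above and the EGCG libraries below all DMSO and testosterone libraries. It was higher in the calindol group than with DMSO by 0.72 (SE 0.15, adjusted p = 0.00209), and EGCG against calindol gave -1.17 (SE 0.15, adjusted p = 2.92e-05). EGCG against DMSO missed the threshold (-0.45, SE 0.15, adjusted p = 0.0566), and passed it with clutch as a block (adjusted p = 0.0249). Cathepsin H, an aminopeptidase, is encoded by ctsh (ENSDARG00000041108), which had 17.7, 17.7 and 16.4 CPM with DMSO and 11.2, 15.4 and 13 CPM with testosterone. With calindol it had 28.0, 24.2 and 18.1 CPM and with EGCG 9.60, 8.03 and 12.2 CPM, so the calindol libraries were above and the EGCG libraries below DMSO. It fell with EGCG, by -0.79 on the log2 scale against DMSO (SE 0.18, adjusted p = 0.00948, or 0.0566 without EGCG library 2). Calindol raised it against testosterone by 0.82 (SE 0.17, adjusted p = 0.00303), while calindol against DMSO missed the threshold (0.45, SE 0.17, adjusted p = 0.0648).

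The remaining cysteine cathepsins kept to similar directions with exceptions. Against DMSO, the calindol group was higher in ctsc, which activates serine proteases of immune cells, by 0.56 (adjusted p = 0.032), ctsf by 0.39 (adjusted p = 0.00082), ctsz, a carboxypeptidase, by 0.58 (adjusted p = 0.00339) and ctss2.1, a cathepsin S gene, by 1.54 (adjusted p = 0.0151). The ctsc call was lost without DMSO library 1, 2 or 4 (0.098, 0.0819 and 0.0739) or calindol library 1 (0.106), and that of ctss2.1 without DMSO library 1 (0.0735). Its neighbour in name ctss2.2 fell with EGCG against DMSO (-1.42, SE 0.29, adjusted p = 0.00543), and ctss1 was not called in any comparison. Over the class of 13 tested genes, 7 were higher and 1 lower with calindol, none higher and 5 lower with EGCG, and 1 higher and 3 lower with testosterone, each against DMSO. Of all tested genes, 11.5% were higher and 15.9% lower with calindol, 7.69% and 9.33% with EGCG, and 2.93% and 3.39% with testosterone. With calindol against testosterone 11 of the 13 were higher and none lower, where 11% of all tested genes were higher and 14.8% lower. Among those 11 calls, ctsf was lost without DMSO library 1 or 4 (0.0502 and 0.0539), testosterone library 1 or 2 (0.0862 and 0.0856) or calindol library 1 or 2 (0.11 and 0.101), and with clutch as a block (0.0586). The call on ctss2.2 was lost without testosterone library 4 (0.0639). That on ctss2.1 was lost without DMSO library 2 or 4 (0.0622 and 0.0567), testosterone library 1 or 4 (0.136 and 0.126), or calindol library 1, 2 or 4 (0.121, 0.0543 and 0.0745).

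The aspartic protease cathepsin D, encoded by ctsd (ENSDARG00000057698), was higher than DMSO in all 3 exposures. It had 54.8, 48.5 and 51.9 CPM with DMSO and 85.4, 89.4 and 92.0 CPM with testosterone. In the calindol libraries it had 89.3, 94.1 and 103 CPM and with EGCG 71.1, 65.7 and 75.9 CPM. No exposed library overlapped with DMSO, and the EGCG libraries lay between DMSO and testosterone alone. The log2 fold change against DMSO was 0.78 with testosterone (SE 0.08, adjusted p = 3.3e-05), 0.88 with calindol (SE 0.08, adjusted p = 5.67e-06) and 0.45 with EGCG (SE 0.08, adjusted p = 0.00202). Calindol against testosterone did not pass (0.10, SE 0.08, adjusted p = 0.379). The serine carboxypeptidase ctsa (ENSDARG00000098114), which also protects other lysosomal enzymes, had 45.2, 48.0 and 48.5 CPM with DMSO and 42.8, 54.8 and 49.1 CPM with testosterone. With calindol it had 92.5, 73.6 and 70.5 CPM, above all other libraries, and with EGCG 36.2, 37.7 and 42.8 CPM, below all DMSO libraries. It rose with calindol by 0.74 against DMSO (SE 0.11, adjusted p = 0.000203), and EGCG against DMSO gave -0.28 (SE 0.11, adjusted p = 0.107).

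**Figure D3:**
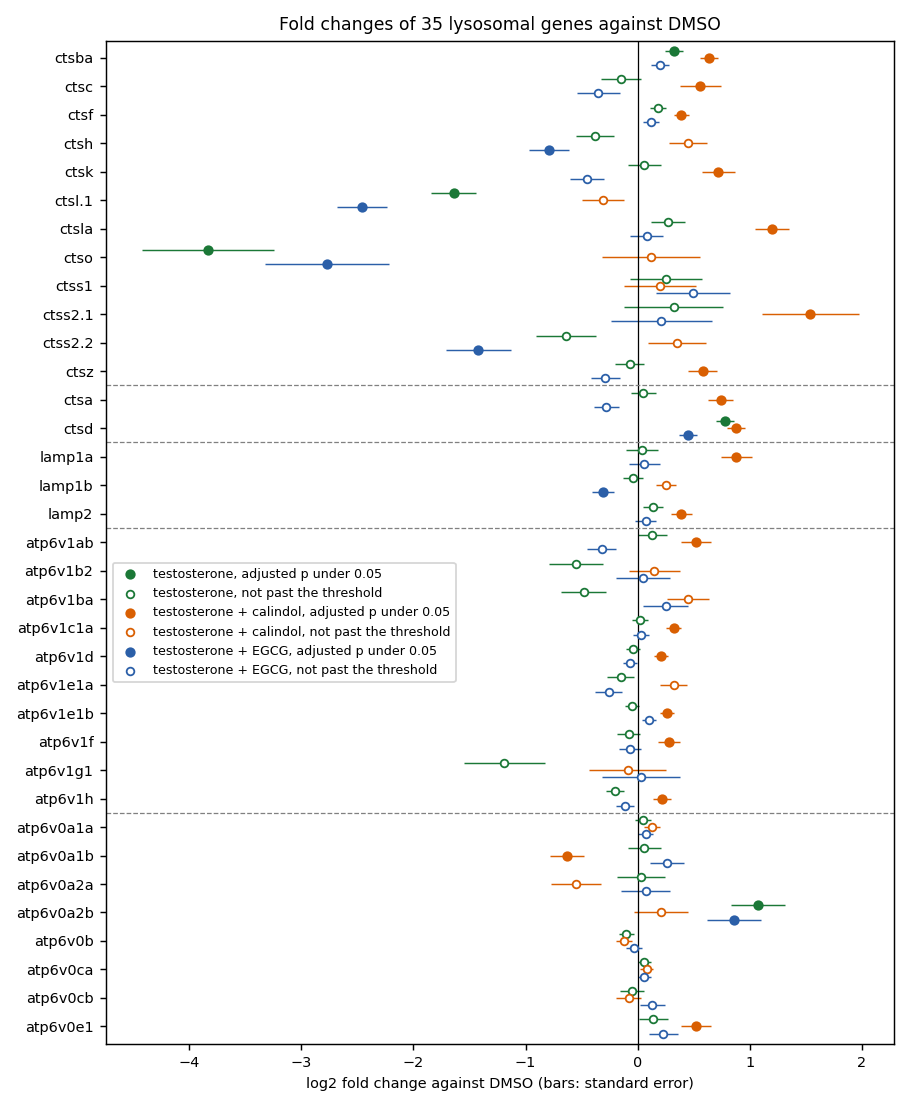
The log2 fold change against DMSO (horizontal axis) of 35 tested genes with testosterone (green), with calindol added (orange) and with EGCG added (blue); bars are approximate standard errors (SE as in the text) and filled points have an adjusted p under 0.05. The gene ctsbb, at 0 counts with testosterone, is left out. Filled orange points lie to the right of 0 except for atp6v0a1b, and ctsd is filled in all 3 colours.

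With calindol, lamp1a (ENSDARG00000100181) had the largest fold change of the 3 LAMP genes against DMSO and against testosterone, and it was not called with testosterone or with EGCG against DMSO. It had 26.0, 22.9 and 29.3 CPM with DMSO, 28.3, 25.7 and 26.6 CPM with testosterone, 58.7, 41.9 and 43.4 CPM with calindol and 22.5, 31.4 and 27.3 CPM with EGCG. Only the calindol libraries stood apart, at a log2 fold change of 0.88 against DMSO (SE 0.14, adjusted p = 0.000341). The second copy, lamp1b (ENSDARG00000092610), had 56.1, 56.1 and 54.7 CPM with DMSO, 49.5, 52.4 and 59.6 CPM with testosterone, 65.6, 71.5 and 60.6 CPM with calindol and 39.0, 47.5 and 47.8 CPM with EGCG. It was 0.25 higher with calindol without passing the threshold (SE 0.09, adjusted p = 0.0646), and it fell with EGCG (-0.31, SE 0.10, adjusted p = 0.0403). That EGCG call was lost with DESeq2's size factors (0.0545), without DMSO library 1, 2 or 4 (0.105, 0.107 and 0.0812) and without EGCG library 1 or 2 (0.152 and 0.0691). Its call for calindol against testosterone (0.29, adjusted p = 0.034) was lost without testosterone library 1 or 2 (0.103 and 0.0647) or calindol library 1 or 2 (0.058 and 0.123). The gene lamp2 (ENSDARG00000014914), known for its role in autophagy, had 60.1, 70.5 and 66.7 CPM with DMSO, 75.8, 69.9 and 72.2 CPM with testosterone, 98.2, 79.3 and 81.1 CPM with calindol and 69.8, 70.9 and 66.1 CPM with EGCG. It was higher in the calindol group by 0.39 against DMSO (SE 0.09, adjusted p = 0.00404), and against testosterone alone the difference of 0.25 did not pass (SE 0.09, adjusted p = 0.051). All 3 LAMP genes were lower with EGCG than with calindol, by log2 fold changes of -0.81, -0.55 and -0.32, where 22% of all tested genes were lower.

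All 10 tested V1 genes were higher with calindol than with testosterone alone, by log2 fold changes of 0.25 to 1.1, where 11% of all tested genes were higher. In the calindol group 6 of the 10 were also higher than with DMSO, by 0.21 to 0.52, where 11.5% of all tested genes were. None was lower in either comparison, where 14.8% (against testosterone) and 15.9% (against DMSO) of all tested genes were. None of the 10 was called for testosterone or for EGCG against DMSO (6.32% and 17% of all tested genes were). Their summed level was 824 ± 15.9 CPM with DMSO, 740 ± 12.2 with testosterone, 977 ± 41.2 with calindol and 818 ± 11.3 with EGCG (SD, n = 3 each). The testosterone libraries, at 727 to 752 CPM, were below all others in this sum, while no single V1 gene passed the test for testosterone.

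The gene atp6v1ab (ENSDARG00000076318) encodes the catalytic subunit A. It had 20.2, 22.2 and 19.7 CPM with DMSO, 19.6, 25 and 23.2 CPM with testosterone, 27.6, 29.6 and 31.6 CPM with calindol and 14.3, 15 and 19.9 CPM with EGCG. The calindol libraries were the highest and did not overlap with any other group. Its log2 fold change with calindol was 0.52 against DMSO (SE 0.13, adjusted p = 0.00718), and EGCG against calindol gave -0.84 (SE 0.13, adjusted p = 0.000148). Against testosterone, the calindol value was 0.38 (adjusted p = 0.0386), and it was lost without DMSO library 1 or 4 (0.0523 each), testosterone library 1 or 4 (0.121 and 0.0658) or calindol library 2 or 4 (0.0715 and 0.104).

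The subunit H gene atp6v1h (ENSDARG00000006370) encodes a regulator of the pump's activity. It had 151, 141 and 138 CPM with DMSO, 121, 118 and 135 CPM with testosterone, 154, 177 and 169 CPM with calindol and 141, 127 and 132 CPM with EGCG. Testosterone libraries were below and calindol libraries above all DMSO libraries, and the log2 fold change between them was 0.42 (SE 0.08, adjusted p = 0.00113). Calindol against DMSO gave 0.22 (SE 0.08, adjusted p = 0.0418). With clutch as a block its adjusted p was 0.064, and it was also lost without DMSO library 2 or 4 (0.115 and 0.147), calindol library 2 or 4 (0.138 and 0.0942) or EGCG library 4 (0.0532).

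Subunit C, part of the stator of the pump, is encoded by atp6v1c1a (ENSDARG00000023967). It had 88.4, 89.7 and 87.5 CPM with DMSO, 87.5, 84.8 and 96.7 CPM with testosterone, 108, 109 and 115 CPM with calindol and 87.2, 93.5 and 90.1 CPM with EGCG. The calindol group was 0.32 above DMSO (SE 0.07, adjusted p = 0.00247), with no overlap with any other group. The subunit D gene atp6v1d (ENSDARG00000011175), part of the central rotor, had 184, 179 and 179 CPM with DMSO, 167, 177 and 182 CPM with testosterone, 203, 212 and 214 CPM with calindol and 171, 170 and 175 CPM with EGCG. It was 0.21 higher with calindol than with DMSO (SE 0.06, adjusted p = 0.0144, or 0.0572 without DMSO library 4). The subunit E gene atp6v1e1a (ENSDARG00000014085), of the peripheral stalk, had 27.0, 30.7 and 28.0 CPM with DMSO, 23.7, 28.5 and 24.7 CPM with testosterone, 42, 30.0 and 34.7 CPM with calindol and 24.1, 25.4 and 22.3 CPM with EGCG. Its calindol libraries overlapped with DMSO (0.32, SE 0.12, adjusted p = 0.0617) and lay above testosterone (0.47, SE 0.12, adjusted p = 0.00969).

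The other 5 tested V1 genes differed in how far their libraries spread. The second subunit E gene, atp6v1e1b, and the subunit F gene, atp6v1f, were higher with calindol than with DMSO by 0.26 and 0.28 (adjusted p = 0.00651 and 0.0406). The atp6v1f call was lost without DMSO library 1, 2 or 4 (0.068, 0.0934 and 0.137) or calindol library 1 or 4 (0.0919 and 0.118). Both subunit B genes and the subunit G gene were called with calindol against testosterone but not against DMSO: atp6v1b2 by 0.70 (adjusted p = 0.043), atp6v1ba by 0.93 (adjusted p = 0.00327) and atp6v1g1 by 1.1 (adjusted p = 0.0353). The atp6v1b2 libraries overlapped between these groups, and with clutch as a block its adjusted p was 0.0521. Its call was also lost with DESeq2 (0.0897), and on leaving out DMSO library 1 (0.0599), testosterone library 2 or 4 (0.107 and 0.166), calindol library 4 (0.191) or EGCG library 1, 2 or 4 (0.0522, 0.0562 and 0.0505). The levels of atp6v1g1 were 50.3, 39.3 and 52.9 CPM with DMSO and 32.8, 23.4 and 7.77 CPM with testosterone, the widest spread among the V1 genes with testosterone. All 3 testosterone libraries were below DMSO (-1.19, SE 0.36, adjusted p = 0.0646), and the difference passed with clutch as a block (adjusted p = 0.0413). Its calindol call against testosterone was lost with DESeq2 (0.0844), without DMSO library 1 (0.0509), testosterone library 4 (0.0731) or calindol library 1 or 2 (0.0797 and 0.0827).

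The V0 genes called with calindol did not share 1 direction. Of 8 tested, calindol against testosterone raised 1 and lowered 2 (37.5% called; 25.8% of all tested genes). Calindol against DMSO raised 1 and lowered 1 (25% called; 27.4% of all tested genes). With 8 genes tested, these shares are no result about the V0 genes as a group. Their summed level was 1130 ± 14.1 CPM with DMSO, 1140 ± 92.9 with testosterone, 1070 ± 78.6 with calindol and 1230 ± 26.1 with EGCG (SD, n = 3 each). The EGCG sums of 1200 to 1260 CPM were above those of DMSO, 1120 to 1150, and of calindol, 982 to 1130.

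Subunit a is the large membrane subunit through which protons pass, and its forms direct the pump to different membranes. The form encoded by atp6v0a1b (ENSDARG00000015174) had 153, 172 and 160 CPM with DMSO, 181, 134 and 190 CPM with testosterone, 78.3, 124 and 112 CPM with calindol and 205, 199 and 180 CPM with EGCG. The calindol libraries were below all others, and the EGCG libraries were above all DMSO libraries. The log2 fold change with calindol was -0.63 against DMSO (SE 0.15, adjusted p = 0.00498) and -0.69 against testosterone (SE 0.15, adjusted p = 0.0033). EGCG against calindol gave 0.89 (SE 0.15, adjusted p = 0.000218), and EGCG against DMSO did not pass (0.26, SE 0.15, adjusted p = 0.225). The a1 form of subunit a is known from neurons in mammals, and markers of neurons moved in the same samples. The summed level of 10 neuron markers was 2890 to 2990 CPM with DMSO, 2440 to 3000 with testosterone, 1640 to 2280 with calindol and 3280 to 3550 with EGCG. Against DMSO, calindol lowered 7 of these markers and raised none, where 15.9% of all tested genes were lower. EGCG raised 2 and lowered none, where 7.69% of all tested genes were higher. The part of neuron content in the level of atp6v0a1b was not tested.

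The gene atp6v0a2b (ENSDARG00000035565) was the V0 gene that testosterone raised. It had 13.3, 7.27 and 6.09 CPM with DMSO, 24.4, 15.3 and 16.4 CPM with testosterone, 11.4, 9.36 and 9.89 CPM with calindol and 15.9, 17.1 and 15.4 CPM with EGCG. Testosterone and EGCG libraries were above all DMSO libraries, calindol libraries overlapped with DMSO, and clutch 1 was the highest in the DMSO, testosterone and calindol groups. The log2 fold change against DMSO was 1.07 with testosterone (SE 0.24, adjusted p = 0.0153) and 0.86 with EGCG (SE 0.24, adjusted p = 0.0263), and calindol against testosterone gave -0.86 (SE 0.24, adjusted p = 0.0157). The testosterone call was lost without DMSO library 2 or 4 (0.0773 and 0.0775) or testosterone library 1 (0.0599). The EGCG call was lost without DMSO library 2 or 4 (0.108 and 0.10) or EGCG library 1 or 2 (0.0673 and 0.0942). The calindol call was lost without testosterone library 1 (0.0841) or calindol library 4 (0.0503). Its relative atp6v0a2a (ENSDARG00000035538) had 6.35, 6.90 and 5.19 CPM with DMSO, 7.96, 5.64 and 5.37 CPM with testosterone, 3.74, 5.47 and 3.32 CPM with calindol and 7.11, 6.12 and 6.22 CPM with EGCG. It was called only for EGCG against calindol (0.62, SE 0.22, adjusted p = 0.0359). That call was lost without calindol library 1 or 4 (0.111 and 0.138) or EGCG library 1, 2 or 4 (0.108, 0.0687 and 0.0635).

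Among the small V0 subunits, atp6v0e1 (ENSDARG00000101794) had 13.8, 14.9 and 15.8 CPM with DMSO, 14.7, 17.7 and 16.5 CPM with testosterone, 22.3, 18.6 and 23.2 CPM with calindol and 14.7, 17.1 and 20 CPM with EGCG. In the calindol group it was 0.52 higher than with DMSO (SE 0.13, adjusted p = 0.00726). Against testosterone it gave 0.39 (adjusted p = 0.04), which was lost without DMSO library 2 or 4 (0.0539 and 0.0522), testosterone library 1 or 4 (0.112 and 0.0758) or calindol library 1 or 4 (0.0953 and 0.116). The ring of c subunits that turns during proton transport is encoded in part by atp6v0cb (ENSDARG00000036577). It had 414, 410 and 424 CPM with DMSO, 421, 336 and 444 CPM with testosterone, 321, 426 and 430 CPM with calindol and 457, 463 and 447 CPM with EGCG. No comparison called it, although all EGCG libraries were above all others (0.13 against DMSO, SE 0.11, adjusted p = 0.433). The genes atp6v0ca, atp6v0b and atp6v0a1a were not called either, with absolute log2 fold changes of at most 0.13 in every comparison.

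With EGCG against testosterone, ctsl.1, ctsk, ctsd and atp6v1ab were lower and atp6v1ba and atp6v1g1 higher, with adjusted p from 0.018 to 0.0455. None of these calls held in every fit that left out 1 library, and without EGCG library 2 none of the 36 genes was called by edgeR, while 10 had an unadjusted p under 0.05. The count was 1 without EGCG library 1, 2 without any 1 of the DMSO libraries, 2 without either the testosterone library of clutch 2 or that of clutch 4, and 4 without EGCG library 4. With clutch as a block, ctsl.1 missed the threshold (adjusted p = 0.0536). The EGCG library of clutch 1 was the shallowest of the 12. With EGCG against calindol, 13 of the 15 tested cathepsins, all 3 LAMP genes and 7 of 10 V1 genes were lower and 3 of 8 V0 genes higher (22% of all tested genes were lower and 21.1% higher). Of those calls, that on atp6v1e1b (-0.16, adjusted p = 0.0485) missed the threshold with clutch as a block (0.0657). It was also lost without DMSO library 1, 2 or 4 (0.0634, 0.0637 and 0.0681), calindol library 2 or 4 (0.0951 and 0.143) or EGCG library 1, 2 or 4 (0.0628, 0.0951 and 0.11). The call on ctss2.1 was lost without calindol library 1 (0.0612) or EGCG library 1 or 2 (0.082 and 0.10), and that on atp6v0a2b without calindol library 2 or 4 (0.107 and 0.0947) or EGCG library 1, 2 or 4 (0.0837, 0.12 and 0.0655).

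Zebrafish carry several of these genes as pairs of copies, and 7 tested pairs were compared by the log2 ratio of their counts within a library (0.5 added to each count). An exact permutation test of differences among the 4 groups was run per pair over 369600 assignments of libraries that leave clutch out, with p-values adjusted over the 7 pairs. A version chosen after seeing the data exchanged libraries only within a clutch (13824 assignments, smallest possible p 0.00174). The ratio of atp6v0a1a to atp6v0a1b was -0.71 ± 0.10 with DMSO, -0.71 ± 0.17 with testosterone, 0.07 ± 0.35 with calindol and -0.91 ± 0.04 with EGCG (SD, n = 3 each; exact p = 0.00175, adjusted 0.00795). In the calindol libraries the values ran from -0.19 to 0.48, above all other libraries. The ratio of ctsba to ctsbb was 6.34 ± 0.37, 12.32 ± 0.46, 10.61 ± 1.98 and 9.28 ± 0.95 in the same order of groups (exact p = 0.00227, adjusted 0.00795), where values at 0 counts of ctsbb depend on the added 0.5. The ratio of lamp1a to lamp1b was -1.1 ± 0.19, -1 ± 0.18, -0.47 ± 0.31 and -0.73 ± 0.12 (exact p = 0.0189, adjusted 0.0441), and within clutches the call was lost (exact p = 0.0556, adjusted 0.1). Its adjusted p was also above the threshold without DMSO library 1 or 2 (0.0797 and 0.112), testosterone library 2 or 4 (0.092 and 0.0692), calindol library 1 or 4 (0.102 and 0.0857), or EGCG library 1, 2 or 4 (0.0871, 0.072 and 0.0806). Within clutches the atp6v0a1 and ctsb pairs had adjusted p of 0.0425 and 0.0365. The atp6v0a2 pair had an adjusted p of 0.0574, and 0.0351 without calindol library 2. The ctss2, atp6v1e1 and atp6v0c pairs did not pass (exact p = 0.195, 0.152 and 0.261).

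**Figure D4:**
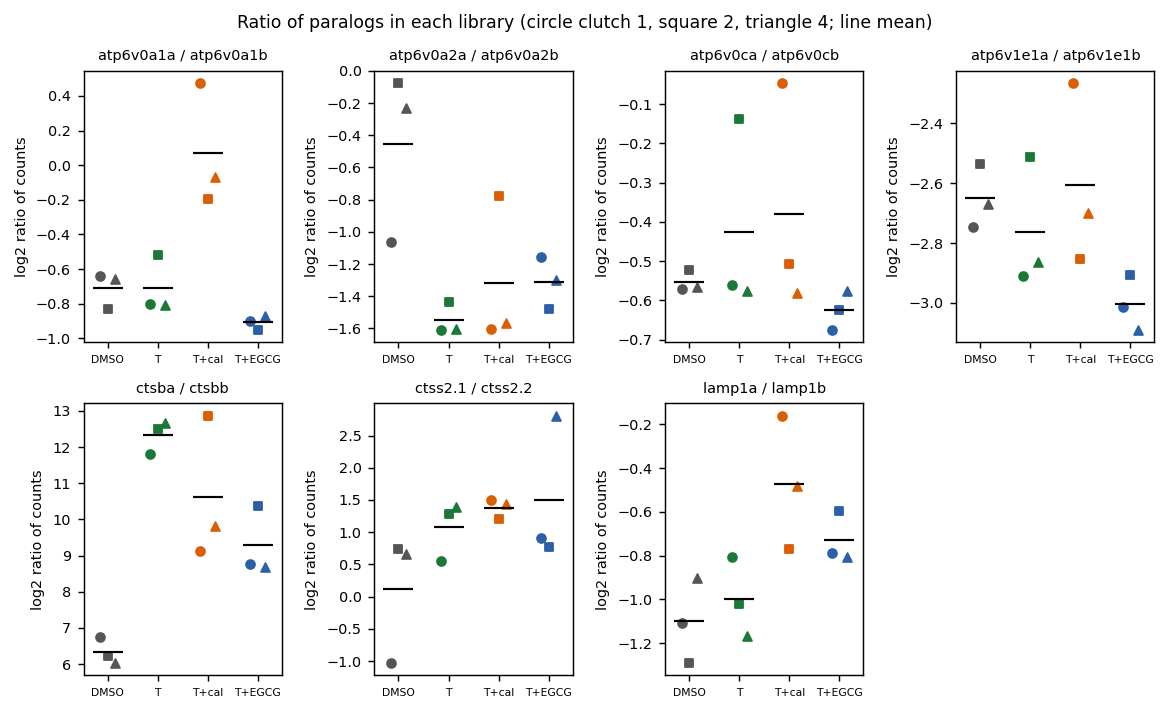
The log2 ratio of counts of 2 gene copies (vertical axis, its range differing between panels) in each library by exposure, for 7 pairs; markers are libraries by clutch and the line is the mean of 3. The ratio of atp6v0a1a to atp6v0a1b is highest in the 3 calindol libraries, and that of ctsba to ctsbb is lowest in the 3 DMSO libraries.

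Of the 41 genes, 5 had too few counts for the test. The cathepsin L copy ctsll and the subunit C gene atp6v1c1b had no count in any library. The subunit d gene atp6v0d1 and the second subunit A gene atp6v1aa had 1 count each, both in EGCG library 4, and atp6v1c2 had 66 counts in all, at 1 to 12 per library. How reads that match several copies were counted was not given in the sources used here, so counts of near-identical copies are uncertain, values near 0 included.

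Other lysosomal genes, from 5 lists of 107 genes of which 92 were tested, were counted in the same comparisons. The shares of all tested genes called against DMSO, 27.4% with calindol, 17% with EGCG and 6.32% with testosterone, also apply beside these counts. Over the 5 lists, 48 of 92 genes were called with calindol, 12 with EGCG and 5 with testosterone. With 1 library left out, the calindol count ran from 32 (without calindol library 1) to 52 (without testosterone library 2). The EGCG count was 6, 5 and 6 without DMSO library 1, 2 and 4, 4 and 3 without EGCG library 1 and 2, 23 without calindol library 1, and 33 with only the 6 libraries compared. The testosterone count was 3 without DMSO library 2, DMSO library 4 or testosterone library 4. Of 36 soluble hydrolases and activators, 20 were higher and none lower with calindol against DMSO, while testosterone raised 1 and lowered 1 and EGCG raised 1 and lowered 4. Their median log2 fold change was 0.41, -0.04 and -0.19 in these comparisons. The testosterone and EGCG shares are near or below those of all tested genes (6.32% and 17%), so they are no result about the hydrolases as a group. The proteases lgmn and tpp1 rose with calindol by 0.67 and 0.86 (SE 0.11 each, adjusted p = 0.000304 and 5.39e-05) and fuca1.1, which removes fucose, by 0.81 (SE 0.11, adjusted p = 0.000118). The sphingomyelinase gene smpd1 fell with testosterone from 34.3 ± 1.26 to 24 ± 2.91 CPM (-0.51, SE 0.11, adjusted p = 0.0139) and with EGCG to 21.7 ± 2.98 CPM (-0.67, SE 0.12, adjusted p = 0.00174). With calindol smpd1 was at 43.9 ± 3.74 CPM, 0.36 above DMSO (SE 0.11, adjusted p = 0.0258).

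Of 20 genes for other lysosomal membrane proteins and pump accessory proteins, 12 were higher and 2 lower with calindol, 2 higher with testosterone and 3 higher with EGCG, against DMSO. The EGCG share is near that of all tested genes (17%). The gene scarb2a, whose mammalian counterpart carries glucocerebrosidase to the lysosome, was at 196 ± 16.7 CPM with DMSO, 374 ± 38.2 with testosterone, 478 ± 45.4 with calindol and 346 ± 27.1 with EGCG. It was called in all 3 comparisons with DMSO (log2 fold changes 0.93, 1.29 and 0.82). The 2 that fell with calindol were dmxl2, a factor in pump assembly that is also known from synaptic vesicles, with a change of -1.13 (SE 0.14, adjusted p = 4.81e-05), and atp6ap1a, a pump accessory subunit, with -1.08 (SE 0.13, adjusted p = 3.73e-05). Like atp6v0a1b, both were lower in the samples in which the neuron markers were lower, and the part of neuron content was not tested. The gene ostm1, also on this list, rose with calindol by 0.65 (SE 0.14, adjusted p = 0.0027).

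Of 17 genes for transcription factors and nutrient sensors, 4 were higher and 2 lower with calindol, 2 lower with EGCG and none called with testosterone, against DMSO. For calindol and EGCG these shares are near those of all tested genes (27.4% and 17%), so they are no result about the regulators as a group. The factor gene tfe3a rose with calindol from 14.9 ± 0.44 to 26.2 ± 2.21 CPM (0.82, SE 0.09, adjusted p = 3e-05), and lamtor2 and lamtor4, of the complex that anchors nutrient sensing at the lysosome, by 0.36 and 0.29 (adjusted p = 0.0227 and 0.0273). The kinase gene mtor fell from 56.0 ± 3.56 to 40.8 ± 3.51 CPM (-0.46, SE 0.09, adjusted p = 0.00121). Of 14 genes for sorting enzymes to the lysosome, 3 were higher and 2 lower with calindol and 1 was higher and 1 lower with EGCG, again near the shares of all tested genes. The sorting receptor genes sort1b and sorl1 were among the calindol calls, at 0.30 and -0.41 (adjusted p = 0.0224 and 0.00055). Of 5 genes for cystatins, which inhibit cysteine cathepsins, 3 were higher with calindol, 1 with testosterone and none with EGCG. The cystatin gene cst14b.1 was at 26.2 ± 1.08 CPM with DMSO, 43.6 ± 6.24 with testosterone (0.73, SE 0.11, adjusted p = 0.000635), 56.4 ± 3.14 with calindol (1.1, SE 0.11, adjusted p = 7.46e-06) and 28.6 ± 2.93 with EGCG.

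**Figure D5:**
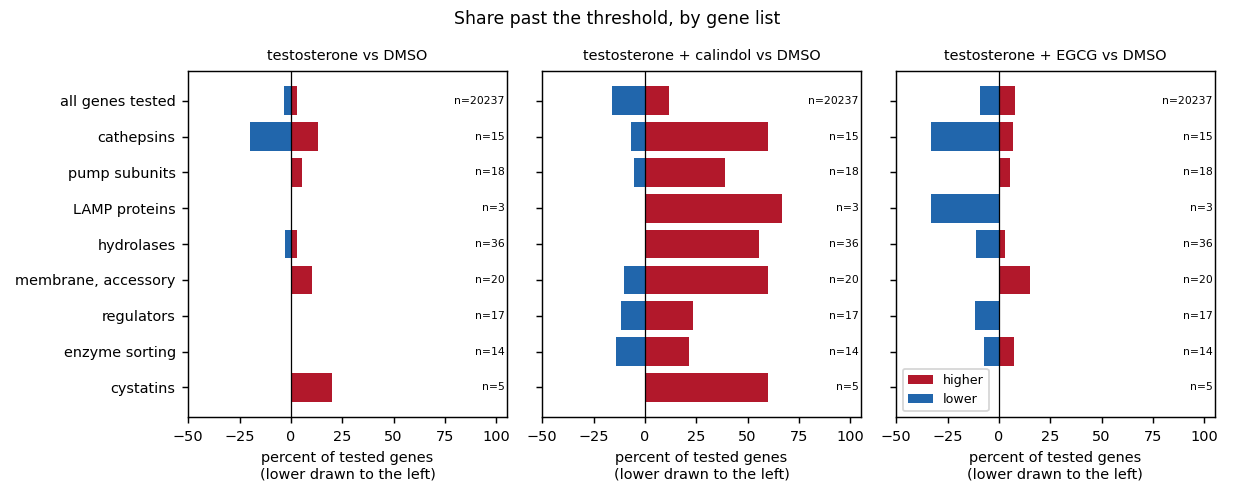
Share of tested genes past the threshold against DMSO, higher to the right and lower to the left of 0, for all genes, the cathepsins, pump subunits and LAMP genes, and the 5 lists of other lysosomal genes; n is the number tested. With calindol 20 of 36 hydrolases and 9 of 15 cathepsins were higher, where 11.5% of all tested genes were.

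Markers of cell types rich in lysosomes were measured in the same libraries. Of 15 macrophage and microglia markers in the table, 9 were tested, and mpeg1.1, c1qa, c1qb, c1qc and slc7a7 were at 0 counts in all libraries. A count of 0 in this or the other marker lists does not show that the RNA was absent. The annotation release and the counting of reads that map to several places were not given. The summed level of the 15 markers was 80.4 to 87.2 CPM with DMSO, 50.6 to 57.8 with testosterone, 66.0 to 95.7 with calindol and 35 to 38.9 with EGCG. The macrophage gene mpeg1.2 was at 34.8 ± 1.74, 7.46 ± 1.22, 25.8 ± 3.78 and 4.73 ± 1.34 CPM in that order. Much of the fall of the sum with testosterone was that of mpeg1.2. Against DMSO, testosterone lowered 2 of the 9, calindol 1 and EGCG 5, and none rose. The median log2 fold change of the 9 was -0.35 with testosterone, 0.05 with calindol and -0.97 with EGCG. Of all tested genes, 3.39%, 15.9% and 9.33% were lower in these 3 comparisons, so the calindol count is near that share. In group order the marker sums had the same low groups as ctsl.1, ctso and ctsh, and their part in those results was not tested. With calindol against testosterone alone, 4 of the 9 were higher and none lower, with a median log2 fold change of 0.64. Of all tested genes, 11% were higher and 14.8% lower there. The calindol sums overlapped with those of DMSO, and their part in the levels of ctsla, ctsk, ctsa and lamp1a was not tested.

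Markers of lysosome-rich and of ileal enterocytes of the gut were listed together, 6 in all. They summed to 85.9 to 102 CPM with DMSO, 46.9 to 52.8 with testosterone, 51.8 to 69.9 with calindol and 43.9 to 54.3 with EGCG. Testosterone lowered 4 of the 6, among them lrp2b (-3.14, SE 0.30, adjusted p = 2.39e-05) and fabp6 (-4.86, SE 0.49, adjusted p = 3.3e-05), calindol lowered 3 and EGCG 4, and none rose. Of all tested genes, 3.39%, 15.9% and 9.33% were lower with testosterone, calindol and EGCG. With calindol against testosterone alone, 2 of the 6 were higher and none lower, with a median log2 fold change of 0.91. Of all tested genes, 11% were higher and 14.8% lower there. The marker sum stayed below DMSO in the calindol group, and its part in the cathepsin results was not tested. Of 5 neutrophil markers in the table, lyz was at 0 and 3 were tested. The markers summed to 79.5 to 86.6, 39.4 to 60.6, 82.5 to 150 and 68.2 to 77.6 CPM in the 4 groups. With calindol against DMSO, mmp9 rose by 2.25 (SE 0.28, adjusted p = 5.85e-05). The other 2 tested markers were not called there, and the median log2 fold change of the 3 was 0.24. Of all tested genes, 11.5% were higher there. With calindol against testosterone alone, 2 of the 3 were higher and none lower, with a median of 0.61, where 11% of all tested genes were higher. The part of neutrophils in the cathepsin results was not tested.

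Pigment cells, whose melanosomes are related to lysosomes, had 9 markers that summed to 712 to 750 CPM with DMSO, 815 to 964 with testosterone, 958 to 1200 with calindol and 618 to 732 with EGCG. Against DMSO, 6 of the 9 were higher with calindol, 2 with testosterone and 1 with EGCG, and none fell. Of all tested genes, 11.5%, 2.93% and 7.69% were higher in these comparisons. The summed level of these markers was highest in the group in which ctsla, ctsk, ctsa and lamp1a were highest, and its part there was not tested. Of the osteoclast list, acp5a and calcr were at 0 and 3 genes were tested, and ctsk itself is on it. Their sum, mostly ctsk, was 39.2 to 47.6, 44.0 to 47.3, 60.1 to 89.8 and 29.9 to 33.1 CPM. Ionocytes, some of which use the pump at the cell surface, had 10 markers with foxi3b at 0. Their sums of 170 to 171, 138 to 179, 142 to 183 and 159 to 191 CPM overlapped between groups. Hatching gland markers, among them the cathepsin ctslb left out of the 41 genes, summed to 14.3 to 21.5, 37.2 to 56.7, 12 to 16.9 and 59.9 to 89.6 CPM. Genes of the yolk syncytial layer summed to 13400 to 14700, 10800 to 14700, 13300 to 18600 and 9550 to 10100 CPM. The part of these 3 cell types was not tested.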

How the data were processed

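Poly(A) RNA of 12 whole-embryo samples was sequenced as directional libraries, per the labels' protocols. The authors deposited whole-number read counts per gene, with no normalization. Per the submitters' processing notes, reads were processed with Trim Galore 0.6.10, STAR 2.7.1a and featureCounts, and the genome build was GRCz11. The annotation release, how strand was set and how reads mapping to several places were counted were not given in the sources used here. All other values were computed here from these counts.

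Counts were tested with edgeR 4.0.16 (R 4.3.3; filterByExpr with a minimum count of 10, TMM scaling, 1 mean per group, glmQLFit and glmQLFTest, 8 residual degrees of freedom, median prior 6.68). P-values were adjusted over the 20237 genes tested. Biological variation was 13.1% (common coefficient). The libraries of a group came from different clutches. The titles give the clutch, which pairs libraries across groups. With group means removed, libraries of 1 clutch correlated across genes at a mean r of 0.00052 (18 pairs, -0.1 to 0.12) and libraries of different clutches at -1.7e-05 (36 pairs, -0.24 to 0.25). The main test leaves clutch out, and the blocked fit was an alternative. The limit of 3 counts taken for a count of 0 covers counting error only, not variation between libraries. The scripts were tested on simulated data.

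The genes, the lists and the tests were chosen with earlier results of these data known. Values per library are given for genes called with testosterone against DMSO, and for up to 5 genes per role with the smallest adjusted p in any comparison. The 4 genes with the smallest adjusted p of a list could be named. The library values of atp6v1g1 were added for their spread, after they were seen. Alternatives were DESeq2's size factors, no filter, DESeq2 1.42.0, the clutch block, only the 6 libraries compared, and leaving out each library. For ratios of copies, leaving out each library, a pseudocount of 1 and exchange within clutches only were added after seeing the data. A search of promoters for a motif was planned and not run, as no promoter sequences were used here.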

Additional observations from a re-analysis of the deposited data

How the results depend on the processing

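Leaving out 1 library moved the number of called genes among the 36 from 6 to 4 to 7 for testosterone against DMSO. It gave 16 to 23 in place of 20 for calindol and 4 to 11 in place of 8 for EGCG, both against DMSO. Calindol against testosterone gave 21 to 26 in place of 27, EGCG against testosterone 0 to 7 in place of 6, and EGCG against calindol 22 to 26 in place of 26. For the 5 lists, the counts were 3 to 5 in place of 5, 32 to 52 in place of 48, 3 to 23 in place of 12, 41 to 50 in place of 49, 2 to 15 in place of 10 and 57 to 66 in place of 64, in the same order of comparisons. With EGCG against testosterone the list counts were 6 without DMSO library 4, 2 without testosterone library 2, and 3, 2 and 6 without EGCG library 1, 2 and 4.

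With only the 6 libraries compared, EGCG against DMSO called 14 of the 36 genes (4 higher, 10 lower) and 33 list genes, and EGCG against testosterone called 3 of the 36. The cause was not tested. That fit also ended the calindol calls against testosterone on ctsf (0.117), atp6v0e1 (0.0707), atp6v1ab (0.0534), atp6v1b2 (0.108), atp6v1g1 (0.0926) and lamp1b (0.073), and the EGCG calls on atp6v1ab (0.0856), atp6v1g1 (0.0903) and ctsl.1 (0.116) against testosterone and on atp6v1e1b (0.151) against calindol. DESeq2 ended those on ctss2.1 with calindol (0.0896) and atp6v1g1 with EGCG (0.064), both against testosterone, and on atp6v1e1b (0.0954). No called gene changed sign under any setting. Of the calls, 4 of 6, 14 of 20, 4 of 8, 18 of 27, 0 of 6 and 22 of 26 held in all 17 settings, in the order above. The clutch as a block ended 5 calls and added 2, given beside those genes, and changed no other call in the edgeR fit. For the ratios of copies, exchanging libraries within clutches ended the call on lamp1a to lamp1b (adjusted p = 0.1) and no other. Without a filter atp6v1e1b was at 0.0614, and with DESeq2's size factors at 0.106, with ctsk at 0.0544 for EGCG against testosterone. DESeq2 gave no adjusted p for ctsbb with calindol against DMSO. With DESeq2's size factors, the share of called genes that were higher with EGCG went from 45.2% to 51.8% against DMSO and from 52.0% to 60.1% against testosterone, and the median of all genes moved by under 0.1 (log2) in every comparison.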
